A study of Sus scrofa domesticus with 8 samples.

Results

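Fibronectin (FN1), periostin (POSTN), decorin (DCN) and fibromodulin (FMOD) are secreted proteins of the extracellular matrix, and their transcripts were followed in cultured porcine ovarian granulosa cells. They are 4 of the 10707 genes that could be named on the array. The 4 genes were chosen from their measured rises against 0 h, so their differences from 0 h are given as a description with no test. Tests on them are limited to comparisons among 48 h, 96 h and 144 h, although the 48 h and 144 h arrays also served in the choice. Each of the 4 symbols was carried by 1 feature, a set of probes summarised to a single value per array.

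Granulosa cells, the somatic cells that surround the oocyte in the follicle, came from slaughtered crossbred Landrace gilts, of which the study used 43, at a median 170 days of age and 98 kg of weight. The groups were labelled alike except for culture time, either 0 h or 48 h, 96 h and 144 h. Culture was in DMEM with 2% fetal bovine serum, 4 mM L-glutamine, gentamicin, penicillin and streptomycin at 37 °C and 5% CO2. The labels do not say whether the groups shared animals or pools. Total RNA was measured on 8 Affymetrix arrays, 2 per time, and the values are log2 intensities, on which a difference of 1 is a 2-fold change. Nothing in the labels tells whether paired arrays stand for different animals, pools or dishes. Each p-value therefore reflects only the spread between arrays of the same time, which may be technical. That spread is pooled over the 4 times and drawn towards that of all features, so it is not that of the compared times alone.

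Fibronectin is a large glycoprotein that cells assemble into fibrils through integrins, and other matrix proteins are laid down on those fibrils. Periostin is a matricellular protein, a kind that modulates how cells meet the matrix, and it binds fibronectin, tenascin and collagen and aids collagen cross-linking. Decorin and fibromodulin are small leucine-rich proteoglycans, which bind collagen fibrils and affect their assembly, and decorin also binds TGF-beta and several growth factor receptors. In the follicle, granulosa cells lie inside a basal lamina, while fibrillar collagens and small proteoglycans are typical of the theca and stroma outside it.

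The labelled cell type was checked against marker genes. Of 15 listed granulosa markers, 10 had a named feature, and at 0 h INHBA (11.60), FST (11.23), HSD17B1 (10.84) and NR5A2 (9.39) were far above the median of the arrays, which lay between 4.52 and 4.63. SERPINE2 (10.80) and AMHR2 (6.61) lay above it too, AMH (5.53), GATM (5.34) and ESR2 (4.79) lay nearer to it, and KITLG (3.65) lay below it. No detection call was used, and values close to the arrays' lower quartile, between 3.13 and 3.25, are not shown to exceed background. The correlation of replicate arrays across features was lowest for 144 h, 0.985, and lay between 0.993 and 0.997 for the other times. No label names a batch, and batch and time cannot be told apart. In cultures of mixed cells, fewer cells of a type and less RNA per cell cannot be told apart.

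Each of the 4 genes lay above both of its 0 h arrays on every later array, and the later courses of the 4 differed. FN1 kept the higher level it had at 96 h, POSTN dipped at 96 h, DCN had its highest level at 144 h, and FMOD climbed in steps. Of the 12 comparisons among later times, 9 were called by limma's moderated test at an adjusted p below 0.05, 8 of them higher at the later time, which is 3 of 4 genes for each pair of times. Over all features 29.4% were called between 48 h and 96 h, 22.2% between 96 h and 144 h, and 8.64% between 48 h and 144 h.

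**Figure D1:**
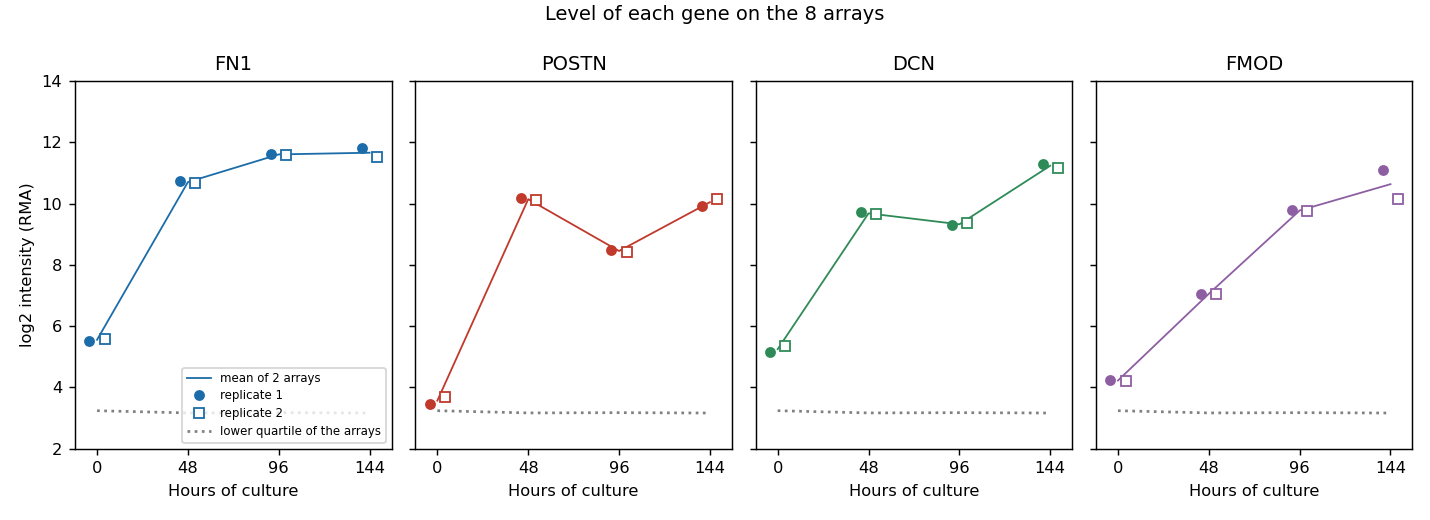
Log2 intensity (y axis) of each gene against time of culture in h (x axis). Circles are replicate 1 and squares replicate 2, drawn 4 h before and after their time so that both can be seen, the line joins the means of 2 arrays, and the dotted line is the lower quartile of the arrays. The FMOD arrays of 144 h, at 11.10 and 10.16, stand farther apart than those of any other gene and time shown.

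FN1, the fibronectin gene, had log2 levels of 5.52 and 5.60 at 0 h, 10.73 and 10.68 at 48 h, 11.62 and 11.59 at 96 h, and 11.81 and 11.51 at 144 h. Both arrays of each later time lay far above both 0 h arrays, and the 96 h and 144 h arrays overlapped each other. Against 0 h, FN1 was higher by 5.14, 6.05 and 6.10 at 48 h, 96 h and 144 h (SE 0.13 each, n = 2 per time). It held place 7 from the largest rise among named genes at each of the 3 times. On the log2 scale, by 48 h it had thus covered 84.3% of its difference at 144 h, and by 96 h 99.1%. As folds over 0 h, FN1 was at 35.4 at 48 h, 66.2 at 96 h and 68.7 at 144 h. From 48 h to 96 h FN1 rose by 0.90 (95% interval 0.61 to 1.20, 1.87-fold, adjusted p = 0.0013). At 144 h it was 0.06 above 96 h (interval -0.24 to 0.35, adjusted p = 0.809), which was not past the threshold, and 0.96 above 48 h (1.94-fold, adjusted p = 0.00308). The data for FN1 therefore give an early rise, a smaller later one, and no called step after 96 h.

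POSTN, the periostin gene, had log2 levels of 3.46 and 3.68 at 0 h, 10.18 and 10.11 at 48 h, 8.47 and 8.43 at 96 h, and 9.93 and 10.16 at 144 h. Its 0 h arrays were close to the lower quartile of their arrays, so no fold against 0 h is given. The 96 h arrays lay below every 48 h and 144 h array, and those of 48 h and 144 h overlapped. Against 0 h the measured differences were 6.57, 4.88 and 6.47 at 48 h, 96 h and 144 h (SE 0.13 each, n = 2 per time), as measured from a level not shown to exceed background. From 48 h to 96 h POSTN fell by 1.69 on the log2 scale (interval -1.99 to -1.39, 3.23-fold lower, adjusted p = 8.21e-05). It then rose by 1.59 from 96 h to 144 h (interval 1.29 to 1.89, 3.02-fold, adjusted p = 0.000227). The difference of 144 h from 48 h was -0.10 (interval -0.40 to 0.20, adjusted p = 0.757) and was not called.

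A dip at 96 h was also seen elsewhere on the arrays. Of the 10707 named genes, 1008 (9.41%) were called lower at 96 h than at 48 h and higher at 144 h than at 96 h, POSTN among them. Whether the dip of POSTN has the same source as that of the other genes was not tested.

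DCN, the decorin gene, had log2 levels of 5.16 and 5.34 at 0 h, 9.71 and 9.65 at 48 h, 9.30 and 9.35 at 96 h, and 11.31 and 11.17 at 144 h. The 4 times did not overlap, and 96 h lay a little below 48 h. Against 0 h the differences were 4.43, 4.07 and 5.99 at 48 h, 96 h and 144 h (SE 0.12 each, n = 2 per time), at places 21, 66 and 8 among named genes. From 48 h to 96 h the difference was -0.36 (interval -0.63 to -0.09, adjusted p = 0.0531), just outside the threshold. DCN then rose by 1.91 from 96 h to 144 h (interval 1.64 to 2.18, 3.76-fold, adjusted p = 7.05e-05), its largest step after 48 h. At 144 h it was 1.55 above 48 h (interval 1.28 to 1.82, 2.94-fold, adjusted p = 0.00028). Among named genes, 345 (3.22%) had the same pair of calls, none between 48 h and 96 h and higher from 96 h to 144 h.

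FMOD, the fibromodulin gene, had log2 levels of 4.24 and 4.22 at 0 h, 7.06 and 7.06 at 48 h, 9.79 and 9.77 at 96 h, and 11.10 and 10.16 at 144 h. The 4 times did not overlap, and each lay above the one before. Against 0 h the differences were 2.83, 5.55 and 6.41 at 48 h, 96 h and 144 h (SE 0.26 each, n = 2 per time), at places 103, 12 and 5. At 48 h FMOD had covered 44.2% of its log2 difference at 144 h, where FN1 and DCN had covered 84.3% and 74.0% of theirs. It rose by 2.72 from 48 h to 96 h (interval 2.13 to 3.31, 6.58-fold, adjusted p = 0.000195). A further rise of 0.86 from 96 h to 144 h (interval 0.27 to 1.45, 1.81-fold) had an adjusted p of 0.0465. Between 48 h and 144 h the rise was 3.58 (interval 2.99 to 4.17, 11.9-fold, adjusted p = 0.000222). Called rises at both steps were found for 39 named genes (0.364%).

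The last step of FMOD rests on arrays that differ from each other. The 144 h arrays of FMOD were 0.94 apart, farther than 97.6% of features at that time. The step was 1.33 without 144 h replicate 2 (adjusted p = 0.000459) and 0.39 without 144 h replicate 1 (adjusted p = 0.0386). It was not called without any single array of 0 h, 48 h or 96 h, with adjusted p-values between 0.0747 and 0.181.

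**Figure D2:**
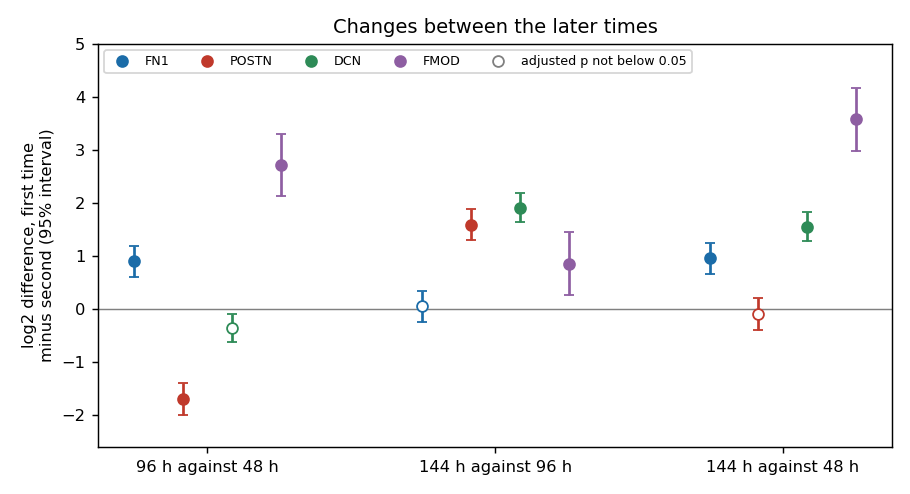
Log2 difference (y axis, first time minus second) of the 4 genes for the 3 pairs of later times (x axis), with bars for the 95% interval from the limma model over 8 arrays. Filled points had an adjusted p below 0.05 and open points did not. FMOD and POSTN went opposite ways between 48 h and 96 h, by 2.72 and -1.69, and FN1 stayed near 0 between 96 h and 144 h.

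The courses of the 4 genes were also set against each other by the difference of their changes. This removes each gene's own level, but features can differ in how strongly they respond, as those of COL1A1 did. How far probe response shaped the differences was not tested. With 2 arrays a time, no p-value is given. Between 48 h and 96 h the change of POSTN minus that of FMOD was -4.41, and the change of FN1 minus that of POSTN was 2.59. Over the same step, the change of DCN minus that of FMOD was -3.08, and that of FN1 minus that of DCN 1.26. From 96 h to 144 h the order turned, with -1.86 for FN1 minus DCN and 1.05 for DCN minus FMOD. The smallest such difference between later times was -0.32, for POSTN minus DCN from 96 h to 144 h. Of the glycoproteins, FN1 was called higher and POSTN lower between 48 h and 96 h.

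Genes with the most similar course were found by the root mean square (RMS) difference over the 8 arrays after the mean 0 h level of each gene was subtracted. These distances are descriptions, and genes measured on the same arrays share their errors. Nearest to FN1 were SHAS2 (RMS 0.21), listed under that symbol for hyaluronan synthase, TAGLN (0.37), ITGB3 (0.41), LAMB1 (0.41) and LOX (0.52). Nearest to POSTN were CLIP4 (0.31), HSD3B1 (0.77), LOX (0.85), ITGB3 (0.93) and FN1 itself (0.95). CLIP4 was the nearest by a wide margin, and it had the dip of POSTN, with a change of -1.41 between 48 h and 96 h and 0.91 between 96 h and 144 h.

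DCN lay nearest to COL14A1 (RMS 0.38), which encodes a collagen found on the surface of collagen fibrils. Next came MSRB3 (0.53), IGFBP5 (0.59), PCOLCE2 (0.60) and ITGA2 (0.64). FMOD lay nearest to COL1A1 (0.31), a chain of type I collagen, and then to ITGA11 (0.71), AGTR1 (0.72), CNN1 (0.73) and LOC100519997 (0.91). Among the 4 genes themselves the closest pair was FN1 and POSTN, and the farthest was POSTN and FMOD, at 1.92.

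**Figure D3:**
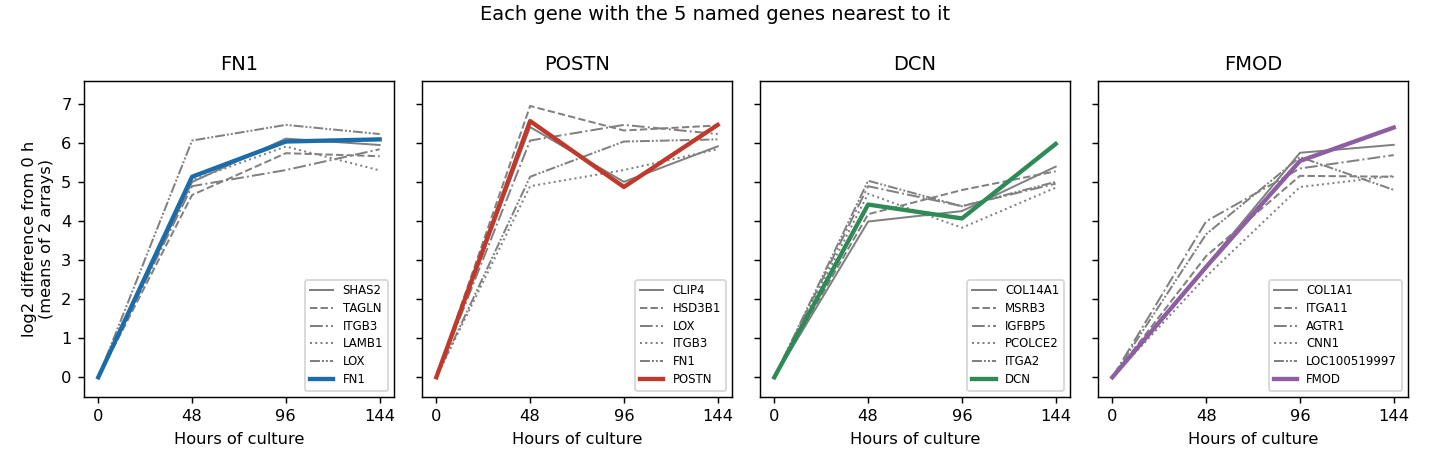
Log2 difference from the 0 h mean (y axis) against time in h (x axis), as means of 2 arrays, for each of the 4 genes (thick line) and the 5 named genes nearest to it (grey lines). COL1A1 is the gene nearest to FMOD (RMS 0.31 over 8 arrays), and at 144 h it is at 5.96 and FMOD at 6.41. CLIP4 has the dip of POSTN at 96 h.

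Other genes of the matrix were taken from 6 lists, with the 4 genes left out of them. Over all features 30.0% were called between 0 h and 48 h and 32.1% between 0 h and 144 h. Among named genes, 18.1% rose and 15.8% fell by 48 h, and 19.2% rose and 17.6% fell by 144 h. From 48 h to 96 h 14.3% rose and 17.0% fell, from 96 h to 144 h 13.0% and 10.1%, and from 48 h to 144 h 5.53% and 4.89%. The median difference over all features lay between -0.05 and 0.01 in these comparisons.

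Of 17 other small leucine-rich proteoglycans listed, 11 had a named feature. At 48 h 4 of the 11 were higher than at 0 h, BGN, LUM, OMD and ASPN, and the median difference of the list was 0.22. At 144 h 7 of the 11 were higher than at 0 h, and the median was 1.16. By limma, 0 were lower than 0 h at either time, also at an unadjusted p below 0.05, although 1 was called lower at 144 h without 144 h replicate 2. Over the span from 48 h to 144 h 6 of the 11 rose, with a median of 0.80, against 5.53% of named genes. Over that span 0 were called lower, and 1 was lower at an unadjusted p below 0.05, OMD (difference -1.05, adjusted p = 0.0544), which was called without either 144 h array. By step, 5 of 11 rose from 48 h to 96 h (3 without either 48 h array or 96 h replicate 1), and 5 of 11 rose from 96 h to 144 h (3 without either 96 h array).

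LUM encodes lumican, a collagen-binding relative of fibromodulin. Its log2 levels were 5.54 and 5.23 at 0 h, 7.78 and 7.54 at 48 h, 8.60 and 8.65 at 96 h, and 10.53 and 10.15 at 144 h. LUM lay higher at each time than at the one before, with no overlap, and its rise from 48 h to 144 h was 2.68 ± 0.17 (SE, n = 2 per time, adjusted p = 0.000117). BGN encodes biglycan, the closest relative of decorin. Its levels were 5.57 and 5.83 at 0 h, 8.25 and 8.34 at 48 h, 8.77 and 8.84 at 96 h, and 9.88 and 9.42 at 144 h. BGN, like DCN, had most of its log2 difference from 0 h by 48 h, 2.59 of 3.95, and rose by a further 1.35 ± 0.17 to 144 h (adjusted p = 0.00243).

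PRELP encodes a proteoglycan-like protein that links collagen to heparan sulfate chains. Its levels of 4.95 and 5.05 at 0 h and 5.03 and 5.37 at 48 h overlapped, and were followed by 6.21 and 6.23 at 96 h and 8.84 and 7.69 at 144 h. PRELP rose by 3.07 ± 0.32 between 48 h and 144 h (adjusted p = 0.00108), the largest rise in the list over that span. PODNL1, a podocan-like member of the family, rose by 1.86 ± 0.12 over the same span (adjusted p = 0.000154). ASPN and OMD started below the lower quartile of their arrays, ASPN at 2.41 and 2.43 and OMD at 2.58 and 2.57. OMD rose by 2.22 to 48 h and then fell by 1.55 to 96 h (adjusted p = 0.000538 and 0.004), unlike LUM and BGN.

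In the order of genes on the pig assembly Sscrofa11.1, DCN is followed by LUM, KERA and EPYC, and FMOD by PRELP, OPTC and ATP2B4. These neighbours did not move as blocks. Beside DCN, LUM was higher by 4.96 at 144 h than at 0 h. EPYC, below the lower quartile at 0 h (2.69 and 2.77), measured 4.07 and 3.87 at 144 h, while KERA, with mean levels between 2.30 and 2.63, stayed below the lower quartile of the arrays. On its other side, BTG1 was lower by 0.86. Beside FMOD, PRELP was higher by 3.26 and ATP2B4 by 2.25 at 144 h, OPTC differed by -0.08, and BTG2, on the other side, differed by -2.08. Beside POSTN, TRPC4 had mean levels of 3.04, below the lower quartile, then 5.32, 4.28 and 5.07, with a dip at 96 h like that of POSTN. On the other side, EXOSC8 and SUPT20H also dipped, with differences of -1.70 and -1.23 at 96 h against 48 h. Unlike POSTN, they differed by -0.27 and -0.77 at 144 h against 0 h. FREM2, beyond TRPC4, differed by -1.09 at 144 h against 0 h.

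**Figure D4:**
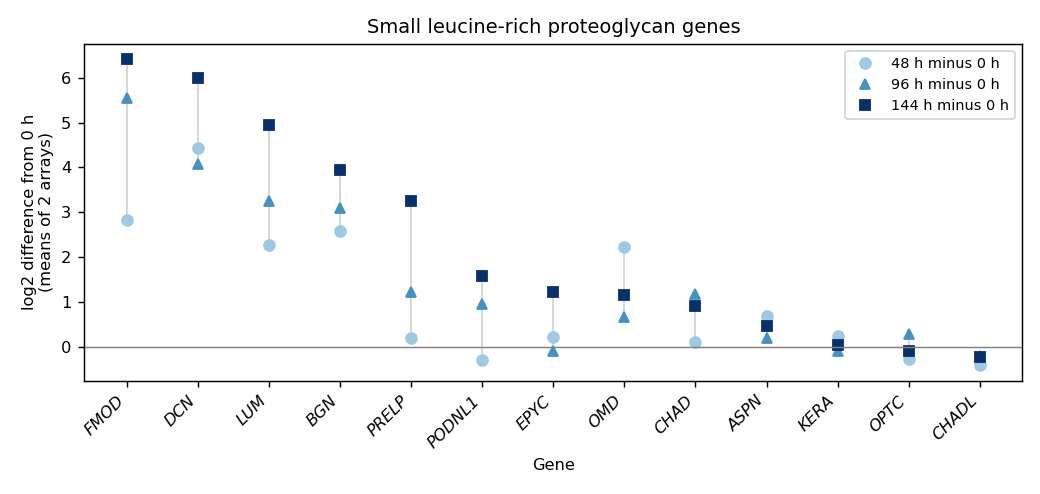
Log2 difference from the mean of the 0 h arrays (y axis) for FMOD, DCN and the 11 other measured small leucine-rich proteoglycan genes (x axis), as means of 2 arrays, with circles for 48 h, triangles for 96 h and squares for 144 h. LUM and PRELP are highest at 144 h, at 4.96 and 3.26, and OMD is highest at 48 h, at 2.22.

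Of 62 other matrix glycoproteins listed, 38 had a named feature. Against 0 h, 15 of the 38 rose and 4 fell by 48 h, the list's median being 0.26, and 19 rose and 5 fell by 144 h, at a median of 0.39. The largest rises at 48 h were those of FBLN5 (4.44 ± 0.25, adjusted p = 8.3e-06) and EFEMP1 (3.52), both fibulins of elastic fibres, and TNC (3.30), the matricellular tenascin that periostin binds. THBS1, a thrombospondin that binds fibronectin and can activate TGF-beta, was higher by 3.26 at 48 h and 3.29 at 144 h. The largest falls at 48 h were those of MFAP2 (-2.45), a microfibril protein, ABI3BP (-2.41) and SPP1 (-1.33), which encodes osteopontin.

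Between 48 h and 144 h 9 of the 38 rose and 3 fell, with a median of 0.11. Without 48 h replicate 1, 5 rose and 1 fell, and without 48 h replicate 2, 1 fell. LTBP2, a fibrillin-binding protein, rose most over this span, by 3.73 ± 0.17 (adjusted p = 2.71e-05), and its levels were 5.14 and 5.06 at 48 h and 8.56 and 9.10 at 144 h. CTHRC1 rose by 2.65 ± 0.50 (adjusted p = 0.0144), with 144 h arrays of 7.83 and 5.93. FBN1, the main fibrillin, rose by 1.96, while FBN2 fell by 1.66 and FBLN5 fell by 1.46. TNC, at 9.17 and 8.17 at 144 h and 8.63 and 8.47 at 48 h, differed by 0.12 and was not called.

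TNC shared the dip of POSTN at 96 h, at 7.59 and 7.57, and was lower there than at 48 h by 0.97. From 48 h to 96 h 11 of the 38 glycoproteins rose and 7 fell, with a median of 0.17, and from 96 h to 144 h 6 rose and 5 fell, with a median of -0.08. Without 48 h replicate 1 or either 96 h array, 4 fell over the first of these steps. Over the second step, 2 rose and 1 fell without either 96 h array, and 3 fell without either 48 h array. SPARC, a collagen-binding matricellular protein, was higher by 1.12 at 48 h and 1.22 at 144 h than at 0 h, and another SPARC feature gave 1.48 and 1.93. TGFBI, the closest relative of periostin, was measured only by a feature that repeats its symbol, which differed from 0 h by -1.13 at 48 h and -1.53 at 144 h (adjusted p = 0.00143 and 0.000217). At 96 h this TGFBI feature differed from 0 h by -0.08 (adjusted p = 0.75). POSTN and TGFBI, as measured here, thus lay on opposite sides of their 0 h levels at 48 h and 144 h.

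Receptors and binding partners of the 4 proteins had 31 named features of 41 listed. Against 0 h, 18 of the 31 rose and 4 fell by 48 h, the list's median being 0.77, and 21 rose and 3 fell by 144 h, at a median of 1.08. The lower count at 48 h was 1 or 2 when any array of 0 h or 48 h was left out, and the lower count at 144 h was 5 without 144 h replicate 2. LOX, the enzyme that starts collagen cross-linking and that fibronectin and periostin help to place, rose from 5.24 and 5.20 at 0 h to 11.26 and 11.32 at 48 h. That difference, 6.07 ± 0.10 (adjusted p = 2.15e-07), was the largest of the list at 48 h. The largest falls at 48 h were those of LOXL4 (-1.01), a relative of LOX, DDR1 (-0.56), a collagen receptor, and COL5A1 (-0.56). LOXL4 lay above both 0 h arrays at 96 h (7.35 and 7.27) and 144 h (7.17 and 6.72). At 144 h the largest falls were those of DDR1 (-0.78), KDR (-0.66), a receptor for VEGF, and ITGA2B (-0.55), the platelet integrin chain. KDR was then below the lower quartile, at 3.07 and 3.06, and its other, dimmer feature gave 0.13.

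Integrin chains that bind fibronectin were among the genes that rose. ITGA5, whose product pairs with that of ITGB1 in the main fibronectin receptor, had levels of 4.48 and 4.70 at 0 h, 6.95 and 6.98 at 48 h, 8.39 and 8.45 at 96 h, and 9.47 and 8.79 at 144 h. It rose by 2.38 to 48 h and by a further 2.16 ± 0.20 to 144 h (adjusted p = 0.000757). ITGB1 was higher by 0.77 at 48 h and 1.08 at 144 h than at 0 h. ITGB3, a chain that pairs with the product of ITGAV and can bind periostin and fibronectin, rose by 4.90 ± 0.12 to 48 h and was 5.85 above 0 h at 144 h. ITGAV was higher by 1.52 at 48 h, and its other feature by 2.46. TGM2, a cross-linking enzyme that also binds fibronectin, was higher by 1.93 at 48 h and 2.90 at 144 h.

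The collagens of this list did not all move alike. COL1A1, which encodes a chain of type I collagen, had levels of 5.88 and 6.33 at 0 h, 8.89 and 9.04 at 48 h, 11.85 and 11.88 at 96 h, and 12.28 and 11.86 at 144 h. Its dimmer feature gave 0.24 in place of 2.86 at 48 h and 2.97 in place of 5.96 at 144 h, so the size of its rise depended on the feature. A further feature, which repeats the symbol, lay near the main one, with 3.30 at 48 h, and 2.70 in place of 3.10 between 48 h and 144 h. COL3A1, the type III chain, was higher by 2.03 at 48 h and 4.62 at 144 h. COL1A2 was measured only by a feature that repeats its symbol, which was higher by 1.25 at 48 h (adjusted p = 0.0814) and 4.79 at 144 h (adjusted p = 0.000113). COL14A1 had levels of 7.38 and 7.32 at 48 h and 8.75 and 8.77 at 144 h, and rose by 1.41 over that span (adjusted p = 0.000436). COL5A1, a chain of type V collagen, differed from 0 h by -0.56 at 48 h (adjusted p = 0.0194) and by 0.47 at 144 h, and its other feature by 0.04 and 0.65. COL6A3, a chain of type VI collagen, was higher by 0.58 at 48 h, differed from 0 h by 0.01 at 144 h and fell by 0.57 between these times (adjusted p = 0.0348). Its other features gave 1.08 and 0.25 at 48 h, and -1.03 and -0.47 between 48 h and 144 h.

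Between 48 h and 144 h 10 of the 31 receptors and partners rose and 2 fell, with a median of 0.17. The lower count was 0 without either 48 h array, 1 without 144 h replicate 1 or either 96 h array, and 4 without 144 h replicate 2. ITGA8, an integrin chain that binds fibronectin among other ligands, rose by 5.10 ± 0.26 (adjusted p = 4.58e-05), the largest rise of the list over that span, while ITGA4 fell by 1.56 and COL6A3 by 0.57, the 2 falls of the list. MET, a growth factor receptor that decorin binds, was higher by 2.41 at 48 h and 2.72 at 144 h than at 0 h. Its 0 h arrays, at 3.61 and 3.17, were close to the lower quartile.

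**Figure D5:**
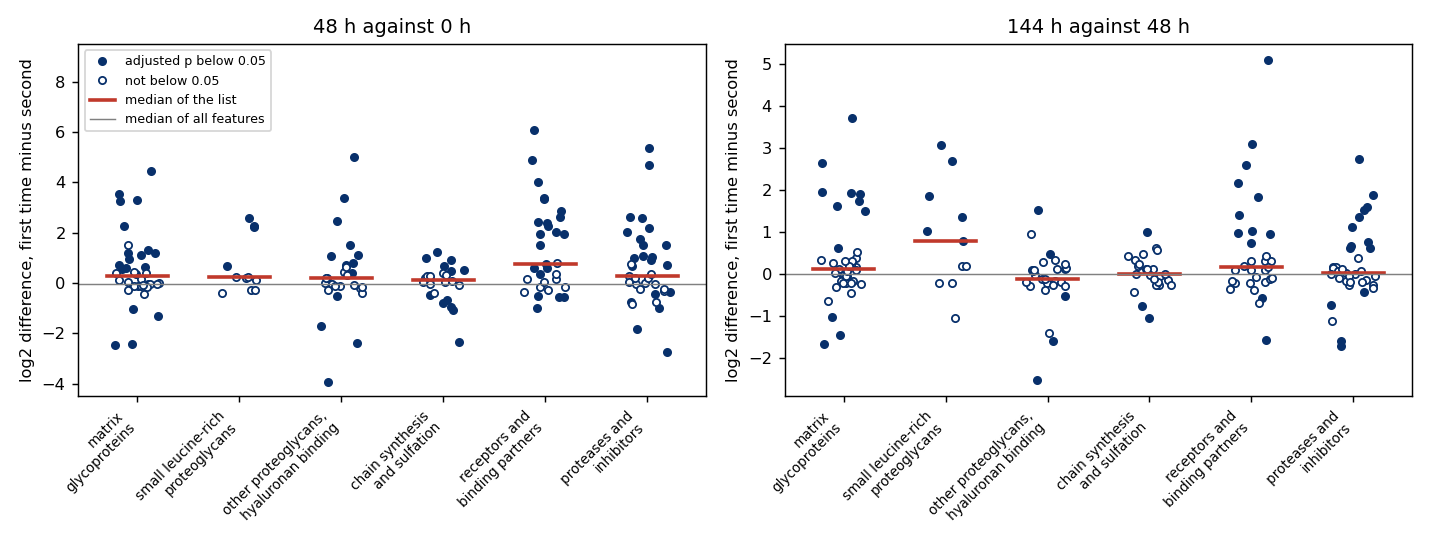
Log2 difference (y axis) of each named gene of the 6 lists (x axis) at 48 h against 0 h (left) and at 144 h against 48 h (right). Filled points had an adjusted p below 0.05, open points did not, red bars are list medians and the grey line is the median of all features. The small leucine-rich proteoglycans have the highest list median on the right, 0.80, and the receptors and partners on the left, 0.77.

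Other proteoglycans and hyaluronan-binding proteins did not share one direction. Of 36 listed, 27 had a named feature, of which 9 rose and 4 fell by 48 h (median 0.20) and 8 rose and 6 fell by 144 h (median 0.01). SHAS2 rose from 2.56 and 2.44 at 0 h, below the lower quartile, to 7.49 and 7.52 at 48 h, and CD44, a hyaluronan receptor, was higher by 3.40. SDC4, a syndecan that binds fibronectin together with integrins, was higher by 2.47 at 48 h and 2.30 at 144 h. TGFBR3, the betaglycan receptor, was lower by 3.92 at 48 h and 4.44 at 144 h, and VCAN, the large proteoglycan versican, was lower by 0.52 and 0.80. PRG4, the lubricin gene, fell by 2.37 to 48 h, where it lay below the lower quartile, at 2.54 and 2.33. HMMR, a hyaluronan-binding protein, fell by 1.71. From 48 h to 144 h 2 of the 27 rose and 3 fell. Among them were CSPG4 (1.54, and 2.47 by its other feature), SPOCK3 (-1.59) and HAPLN1 (-2.52), a link protein of hyaluronan. Without any array of 0 h, 48 h or 96 h, 1 rose, and without 144 h replicate 2, 5 fell.

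The enzymes that build and sulfate proteoglycan chains had 24 named features of 50 listed. By 48 h 6 rose and 6 fell (median 0.13), and by 144 h 8 rose and 6 fell (median 0.07). The higher count at 48 h was 2 without 48 h replicate 1 and 3 without 0 h replicate 1, and the lower count was 3 without 0 h replicate 2 or 48 h replicate 2. At 144 h 4 were higher without 0 h replicate 1. CHST14, a sulfotransferase for dermatan sulfate, the kind of chain decorin can carry, was lower by 1.07 at 48 h (adjusted p = 0.00186) and by 1.25 at 144 h. CHSY3, a chondroitin synthase, was lower by 2.33 at 48 h, and GLCE, which modifies heparan sulfate, was higher by 1.23. B4GALT4 (0.99) and UXS1 (0.92) were also among the largest rises at 48 h and SLC35D1 (-0.97) among the largest falls, and CHST3 and CSGALNACT2 were each higher by 0.88 at 144 h. Later, between 48 h and 144 h, CHSY3 rose by 1.01, and B4GALT4 fell by 1.05 and EXTL2 by 0.75. Over that span another CHSY3 feature gave 1.15 and was not called (limma, adjusted p = 0.0799). A dimmer B4GALT4 feature gave -0.11 over that span and 0.10 at 48 h against 0 h. The chain enzymes thus did not move with DCN and FMOD as a group.

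Proteases that cleave matrix proteins and their inhibitors had 35 named features of 45 listed. By 48 h 15 rose and 6 fell (median 0.28), and by 144 h 17 rose and 4 fell (median 0.38). SERPINB2 (5.37), an inhibitor of plasminogen activators, and PCOLCE2 (4.71), an enhancer of procollagen processing, had the largest rises at 48 h, followed by PLAT (2.63), a plasminogen activator. At 0 h SERPINB2 lay below the lower quartile, at 2.87 and 2.87. SERPINE2, a protease inhibitor that is also among the granulosa markers, had the largest fall of the list, by 2.73 at 48 h and 2.92 at 144 h. RECK, an inhibitor of metalloproteinases, fell by 0.99 to 48 h. Its 144 h arrays, at 6.63 and 6.19, overlapped those of 0 h, at 6.62 and 6.66. DPP4, a membrane peptidase close to the lower quartile at 0 h (3.24 and 3.51), was higher by 3.77 at 144 h, and MMP16 differed by -2.03. BMP1, a protease that trims procollagens and prodecorin, fell from 10.68 and 10.69 at 0 h to 8.88 and 8.86 at 48 h, and was lower by 2.07 at 144 h (adjusted p = 2.71e-06). MMP2, a gelatinase, was higher by 0.90 at 48 h and 2.27 at 144 h, and CTSK, a collagen-cleaving cathepsin, by 0.70 and 2.58.

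The membrane protease MMP14 had features that disagreed, with -0.01 and 2.15 at 144 h against 0 h. Between 48 h and 144 h 10 of the 35 rose and 4 fell (median 0.03), and 6 rose without either 48 h array, while 1 fell without 48 h replicate 1 and 2 without replicate 2. FAP (2.75 ± 0.53), a fibroblast surface protease, rose most over that span, and DPP4 rose by 1.59. MMP9 (-1.72), another gelatinase, fell most, followed by MMP16 (-1.59) and MMP13 (-0.74).

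Marker genes of other cells moved on the same arrays. The summed log2 level of the 10 granulosa markers was 79.8 at 0 h, 65.9 to 66.1 at 48 h, 58.8 to 59.2 at 96 h and 55.5 to 56.6 at 144 h, and 8 of the 10 were lower at 144 h than at 0 h. The summed level of 7 of 12 theca and stroma markers was 30.1 to 30.4, 32.8 to 33.0, 34.9 to 35.1 and 35.7 to 36.5 at the same times. By 144 h 3 of these 7 had risen and 1 had fallen. PDGFRB, a receptor of mesenchymal cells, had mean levels of 4.65, 7.35, 7.01 and 6.97, and THY1, a fibroblast surface protein, of 3.94, 4.97, 6.31 and 7.51. CYP17A1, the defining enzyme of theca cells, stayed near or below the lower quartile on all arrays, and INSL3 was lower by 1.60 at 144 h. The part of such cells in the levels of FN1, POSTN, DCN and FMOD was not tested.

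Markers of smooth muscle and pericytes had 4 named features of 9, with summed levels of 18.2 to 18.9 at 0 h, 20.3 to 20.5 at 48 h, 19.7 to 19.8 at 96 h and 17.3 to 18.4 at 144 h, and ABCC9 near or below the lower quartile throughout. RGS5, a pericyte gene, was highest at 48 h, at a mean of 9.94, and lowest at 144 h, at 7.09. MCAM went another way, with mean levels of 4.18, 4.11, 4.72 and 4.66, and KCNJ8 had 4.06, 3.61, 3.77 and 3.52. The 6 of 10 endothelial markers summed to 22.4 at 0 h and to between 21.7 and 23.1 at 144 h, with TEK and CLDN5 near the lower quartile. By 144 h 1 of the 6 had risen and 1 had fallen. PECAM1 had mean levels of 4.54, 5.55, 5.07 and 5.68, and KDR of 3.72, 3.19, 2.84 and 3.06. The 7 of 11 leukocyte markers summed to between 28.2 and 31.3 over all times, with ITGAM and AIF1 below the lower quartile. All 5 measured oocyte markers of 9 were lower at every later time than at 0 h, and their sum fell from between 27.8 and 29.3 at 0 h to between 18.0 and 18.2 at 144 h. Of 6 surface epithelium markers, KRT19 had mean levels of 4.80, 8.68, 6.10 and 7.42 with a dip at 96 h, and EPCAM stayed near the lower quartile. The part of these cells in the results was likewise not tested.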

How the data were processed

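Total RNA of 8 samples, 2 at each of 0 h, 48 h, 96 h and 144 h, was measured on Affymetrix arrays. The deposited values are log2 intensities that the authors made by RMA, per the submitters' processing notes. The software behind it is not given in the sources used here. RMA gives the arrays a common distribution, which would hide a shift of most transcripts. All 27558 features were fitted, without filter, in limma 3.58.1 under R 4.3.3 (functions lmFit and eBayes, 1 mean per time, 4 residual degrees of freedom), and Benjamini-Hochberg adjustment ran over all of them for each comparison's p-values. A call is an adjusted p below 0.05, two-sided. Intervals are 95% intervals from that model. The steps were tested on simulated data.

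Gene names come from GEO's annotation of the platform, possibly outdated, with 6 symbols updated. Of the features, 11735 had 1 symbol, 612 several (239 repeating a single symbol) and 15211 none. The feature with the highest mean stood for a gene. OGN, THBS2, EGFR, DSE, FSHR, CYP19A1, FOXL2, INHA and INHBB were not analysed here. The genes and lists were chosen with earlier results of these data known. Named genes are the 4 genes, the 3 largest called rises and falls per list at 48 h and 144 h against 0 h and at 144 h against 48 h, a set of close relatives and partners, and the 5 nearest in course; neighbours on the assembly, among them EPYC and TRPC4, were added by position. Alternatives were median centring, quantile normalization, cyclic loess, a filter on dim features, and trend and robust eBayes. Others were a fit of both times' arrays only, a fit without the 96 h arrays and a replicate block. The rest were the mean of a gene's features in place of its highest feature, an adjusted p below 0.01 and leaving out each array.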

Additional observations from a re-analysis of the deposited data

How the results depend on the processing

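Of 196 alternatives to the 12 comparisons among later times, 177 kept direction and call, 10 lost the call, 6 gained it and 3 turned the sign. The causes were not tested. The step of FN1 from 96 h to 144 h was -0.0073 with cyclic loess and between -0.094 and 0.20 with an array left out. With the arrays of both times only, limma gave FN1 at 144 h against 48 h an adjusted p of 0.0449. POSTN at 144 h against 48 h lay between -0.21 and 0.013 with an array left out. DCN at 96 h against 48 h was called with quantile normalization (-0.35, adjusted p = 0.0391), without dim features (-0.36, 0.0462), with trend and robust (-0.36, 0.0323) and with the arrays of both times only (-0.36, 0.0262), and lay between -0.39 and -0.33 with an array left out, where leaving out either 144 h array gave the call. Its adjusted p ran from 0.0262 to 0.244 over the alternatives. The step of FMOD from 96 h to 144 h lost its call with median centring (0.82, adjusted p = 0.0631), cyclic loess (0.80, 0.0512), the arrays of both times only (0.86, 0.129) and a threshold of 0.01 (0.86), and lay between 0.39 and 1.33 with an array left out. Its adjusted p ran from 0.000459 to 0.181. Against 0 h, 19 of 188 alternatives moved a difference of the 4 genes by more than its spread, and 0 turned one.

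For 144 h against 48 h, the count of matrix glycoproteins that rose ran from 5 to 12 with an array left out, and of those that fell from 1 to 4, with 1 from the arrays of both times only. The count of small leucine-rich proteoglycans that fell was 1 with median centring, with quantile normalization, with cyclic loess, without dim features and with trend and robust, and 0 or 1 with an array left out. Over the 60 list counts, 148 of 1116 alternatives moved a count by over 1.5 times, and over the counts of all features 31 of 198. At 144 h against 48 h, the 1190 higher and 1191 lower features were 576 and 544 at a threshold of 0.01, 436 and 389 with the arrays of both times only, and 540 to 1880 and 530 to 1999 with an array left out.

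The deviations of arrays of equal replicate number had a correlation of 0.19 between 48 h and 144 h. It lay between -0.04 and 0.06 for the other pairs of times. With the replicate number as a block, no call of the 12 comparisons changed, and FMOD at 144 h against 96 h was 0.86 (adjusted p = 0.0404). The block gave 1154 higher and 1167 lower features at 144 h against 48 h. The number of arrays, 2 per time, and levels near the lower quartile limit the precision.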
